A study of Homo sapiens with 12 samples.

Results

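The BT-A6sh5 and BT-A6sh2 lines were set against each other, 2 derivatives of the BT-549 cell line that carry different short hairpin RNAs (shRNAs) against annexin A6 (gene ANXA6) and differ in how much of its mRNA remains. The comparison used the 4 arrays titled BT-A6sh5 and the 4 titled BT-A6sh2, which are 8 of the 12 arrays of the series, and every measured transcript was tested. The other 4 arrays are of BT-EV, BT-549 cells with the empty vector, which the submitters label as a control shRNA. They took no part in the fit, and their mean is given as the level of cells without an shRNA against ANXA6. BT-549 is a mesenchymal-like triple-negative breast cancer line, and all 3 lines were made from it by stable transfection. Each shRNA is represented by 1 transfected line, so the degree of depletion, the hairpin and the history of the line cannot be told apart. In the study's text the replicate arrays are technical ones, in their titles biological ones, so each p-value measures the spread between these arrays only. For BT-A6sh2 replicate 1 the free-text description gives the hairpin of the other line, but title and transfection label give that of BT-A6sh2, where the array was kept.

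Annexin A6 belongs to a family of proteins that bind acidic phospholipids of membranes when Ca2+ rises. It acts as a scaffold at the plasma membrane and on endosomes, where it takes part in the control of Ca2+ entry, of cholesterol transport, of receptor trafficking and of Ras signaling, among others through its link to Ras GTPase-activating proteins. In breast cancer cells it has been studied for its part in adhesion, motility and signaling from the EGF receptor.

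All values are log2 levels made by RMA (robust multi-array averaging) for transcript clusters, the units of an Affymetrix Human Gene ST array that each stand for 1 transcript region. RMA gives no call of detection, so a fold change against a low level is a value of this scale. The levels of different genes cannot be ranked, because probes differ in brightness. Differences are BT-A6sh5 minus BT-A6sh2, tested with limma, and a gene is said to be higher or lower where its Benjamini-Hochberg adjusted p over all 53617 transcript clusters was under 0.05. Array medians lay between 4.92 and 5.05. Arrays correlated at 0.983 to 0.988 within BT-A6sh5 and at 0.954 to 0.979 within BT-A6sh2, against 0.942 to 0.976 between arrays of different lines. BT-A6sh2 replicates 1 and 3 had narrower distributions (SD over all transcript clusters 2.18 and 2.19) than the other arrays (2.26 to 2.33). The 36 hybridization controls, transcripts added to every sample, averaged 8.76 ± 0.188 in BT-A6sh5, 8.942 ± 0.187 in BT-A6sh2 and 8.202 ± 0.0904 in BT-EV (SD, n = 4 each), and their part in differences from BT-EV was not tested. Of the 190 control probe sets, 0 were higher and 1 was lower by limma. Of the mesenchymal-like markers, 7 were measured, with mean levels in either line between 6.11 and 12.6, and 1 was higher and 2 were lower. The 11 luminal epithelial markers measured lay between 3.66 and 7.39, and 1 was higher. Of 3 immune markers measured, 1 was higher, and of 3 endothelial markers, 0 differed by limma (1 at an unadjusted p under 0.05 and 1 by non-overlapping arrays). In such bulk RNA, fewer cells that express a gene and less RNA per cell cannot be told apart.

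ANXA6 itself was measured first. Its log2 level was 8.83, 8.89, 8.72 and 8.69 in BT-A6sh5, against 10.57, 10.32, 10.50 and 10.41 in BT-A6sh2, and the BT-EV mean was 11.41. Both lines lay below BT-EV, and all 4 BT-A6sh5 arrays lay below all 4 BT-A6sh2 arrays. The means were 8.78 ± 0.0959 and 10.45 ± 0.108 (SD, n = 4 each), so BT-A6sh5 held 31.4% of the BT-A6sh2 level, a difference of -1.67 (standard error 0.108, adjusted p = 4.84e-05, limma). Among the 13 annexins measured, 1 was higher, 2 were lower and 10 did not pass, 23.1% against 17.2% of all genes. Their median difference was 0.0234. The other annexin that was lower was ANXA4, a relative with a single annexin core, at -0.76. ANXA2, which binds the plasma membrane together with S100A10, was higher by 0.55 (adjusted p = 0.0359). The ANXA2 call rests on few arrays, since it was lost when any BT-A6sh5 array or BT-A6sh2 replicate 4 was left out (adjusted p between 0.0516 and 0.1 from limma) and when genes were centred by chromosome (0.37, adjusted p = 0.0506).

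Relative to BT-A6sh2, the BT-A6sh5 arrays gave 2200 higher (4.1%) and 3341 lower (6.23%) transcript clusters, 10.3% in either direction. With the further demand of a 2-fold difference, 627 were higher (1.17%) and 786 were lower (1.47%). The share of higher ones among the 2-fold differences was 44.4%, 46.8% after a repeated quantile normalization and 32.7% after each array was centred on its median. Taking 1 transcript cluster for each of the 14884 named genes, 949 genes were higher (6.38%) and 1609 were lower (10.8%), 17.2% in either direction, and the median gene differed by -0.02. The arrays of the lines did not overlap for 31.2% of these genes, whether or not they passed the test. These shares are the background for the gene groups below. The median of a group is set against a median over all genes close to 0. The named genes include microRNA precursors and genes of low level. Of 11916 protein-coding genes, 859 were higher and 1469 were lower. Of 9425 protein-coding genes with a mean above the median of all transcript clusters, 8.5% were higher and 15.1% were lower. For groups of protein-coding genes, 17.2% is thus a low background.

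For most of the large differences the BT-EV mean lay nearer to BT-A6sh2 than to BT-A6sh5. Of the 246 named genes at least 2-fold higher in BT-A6sh5 (1.65% of those measured), the BT-EV mean lay between the lines and nearer to BT-A6sh2 for 136 (55.3%), below both for 57 (23.2%), between them and nearer to BT-A6sh5 for 50 (20.3%) and above both for 3 (1.22%). Of the 311 at least 2-fold lower (2.09%), it lay between and nearer to BT-A6sh2 for 178 (57.2%), above both for 101 (32.5%), between and nearer to BT-A6sh5 for 29 (9.32%) and below both for 3 (0.965%). Genes whose BT-EV mean lay nearer to BT-A6sh5 are those at which the line with more remaining ANXA6 was farther from the empty vector. Whichever line was nearer, DSG2, XAF1, SRGN and EDIL3 (higher in BT-A6sh5) and DKK1, F2R and TWIST2 (lower in BT-A6sh5) had BT-EV means well inside the gap between the lines. The BT-EV mean lay nearer to BT-A6sh5 for DSG2 and EDIL3, and nearer to BT-A6sh2 for DKK1 and F2R.

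The largest difference of all was in LUM, which encodes lumican, a keratan sulfate proteoglycan that organizes collagen fibrils. LUM was measured at 11.73, 11.89, 11.77 and 11.80 in BT-A6sh5, against 4.43, 3.83, 3.36 and 3.4 in BT-A6sh2, with a BT-EV mean of 4.14. The level in BT-A6sh2 and BT-EV lay below the array medians, and the difference was 8.04 (standard error 0.228, adjusted p = 8.83e-07, limma), 264-fold on this scale. PALMD, which encodes palmdelphin, a cytosolic relative of the membrane-binding paralemmins, had 11.16, 11.15, 11.38 and 11.27 in BT-A6sh5 against 4.67, 4.67, 5.54 and 4.70 in BT-A6sh2 (BT-EV mean 4.97, difference 6.34). CCBE1, a secreted protein required for lymphatic growth through VEGF-C, had 10.16, 9.98, 9.86 and 9.92 in BT-A6sh5 against 4.6, 4.95, 4.34 and 4.31 in BT-A6sh2 (BT-EV mean 5.02, difference 5.43). In each of these 3 genes BT-A6sh2 stood near BT-EV at a low level and the BT-A6sh5 arrays stood alone. So did those of PTGS2 (cyclooxygenase-2), EYA1 (a phosphatase and transcriptional coactivator), SQOR (mitochondrial sulfide oxidation), DCLK1 (a microtubule-associated kinase), EPHA3 (an ephrin receptor) and PXDN (a matrix peroxidase), whose differences were 5.03, 4.6, 4.52, 4.51, 4.22 and 4.08 in that order. The 15 largest among named genes were completed by KYNU at 3.89, DOK6 (a docking protein of the RET receptor) at 3.76, EDIL3 at 3.63, NID2 at 3.47, EDA2R (a receptor of ectodysplasin-A2) at 3.43 and LAYN at 3.42.

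In the other direction the largest difference was in CPED1, a gene of little known function with a predicted cadherin-like domain. It had 4.55, 4.98, 5.66 and 5.02 in BT-A6sh5, against 9.90, 10.08, 9.79 and 10.06 in BT-A6sh2, and a BT-EV mean of 9.91. The difference was -4.91 (standard error 0.218, adjusted p = 5.27e-06, limma), and BT-A6sh5 alone was low. NRN1, which encodes the membrane-anchored neurite growth protein neuritin, had 6.80, 6.68, 6.61 and 6.66 in BT-A6sh5 against 10.83, 10.74, 10.40 and 10.78 in BT-A6sh2 (BT-EV mean 10.55, difference -4.0, adjusted p = 9.24e-07). NFE2L3, a transcription factor of the NRF family, had 4.33, 4.82, 4.93 and 3.95 in BT-A6sh5 against 8.13, 8.18, 8.02 and 8.37 in BT-A6sh2 (BT-EV mean 8.37, difference -3.67). Both genes again left BT-A6sh2 at the BT-EV level. IGFBP5, DKK1, FZD3, PSG7, PSG5, SDC2, DNER and IGFBP6 were also among the 15 largest and are described with their groups. The remaining ones were ELOVL4 (elongation of very long fatty acids) at -3.18, ADAM23 (an adhesive ADAM protein without protease activity) at -2.98, SMIM10 at -2.98 and ZNF618 (a zinc finger protein) at -2.95.

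**Figure D1:**
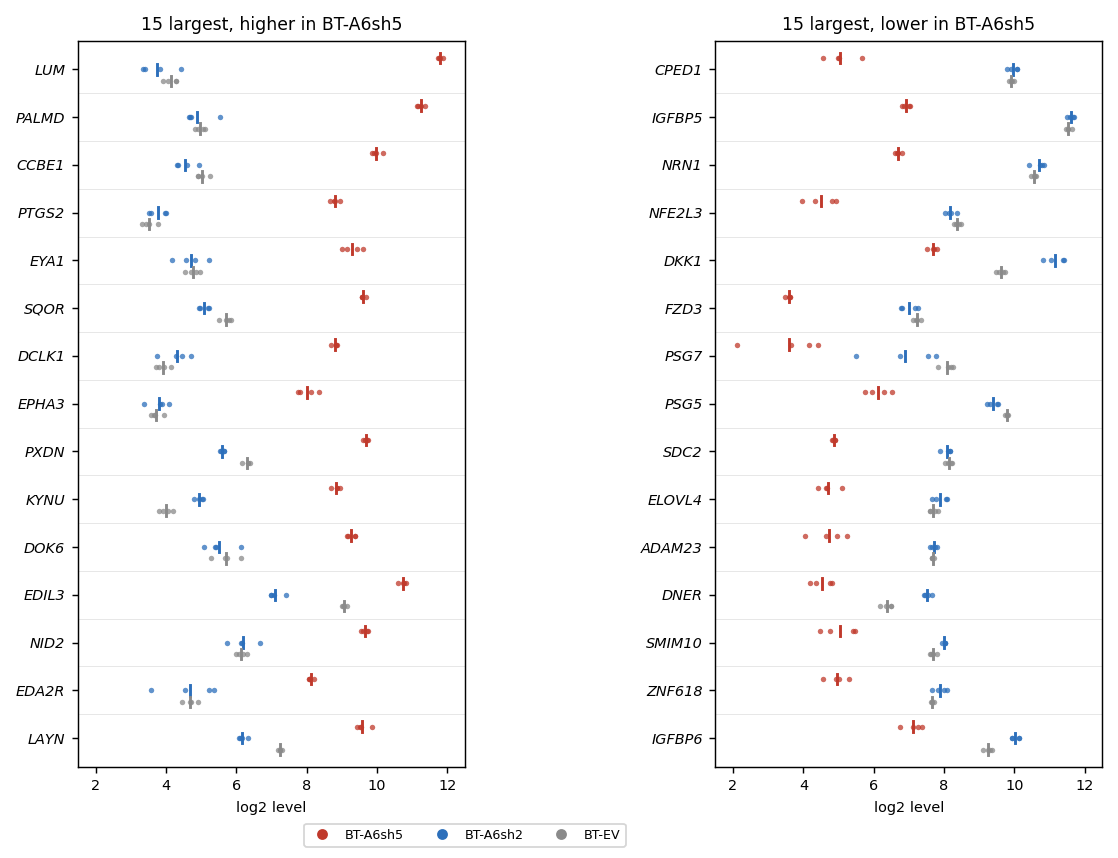
Log2 level (horizontal axis) of the 15 named genes most higher (left) and the 15 most lower (right) in BT-A6sh5 than in BT-A6sh2, with 1 point per array (4 per line) and a bar at the mean of each line, BT-A6sh5 above BT-A6sh2 above BT-EV. BT-A6sh5 lies apart from BT-A6sh2 in every row because the choice of genes required it. For LUM, PALMD, CPED1 and NRN1 the BT-A6sh2 and BT-EV arrays lie together.

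**Figure D2:**
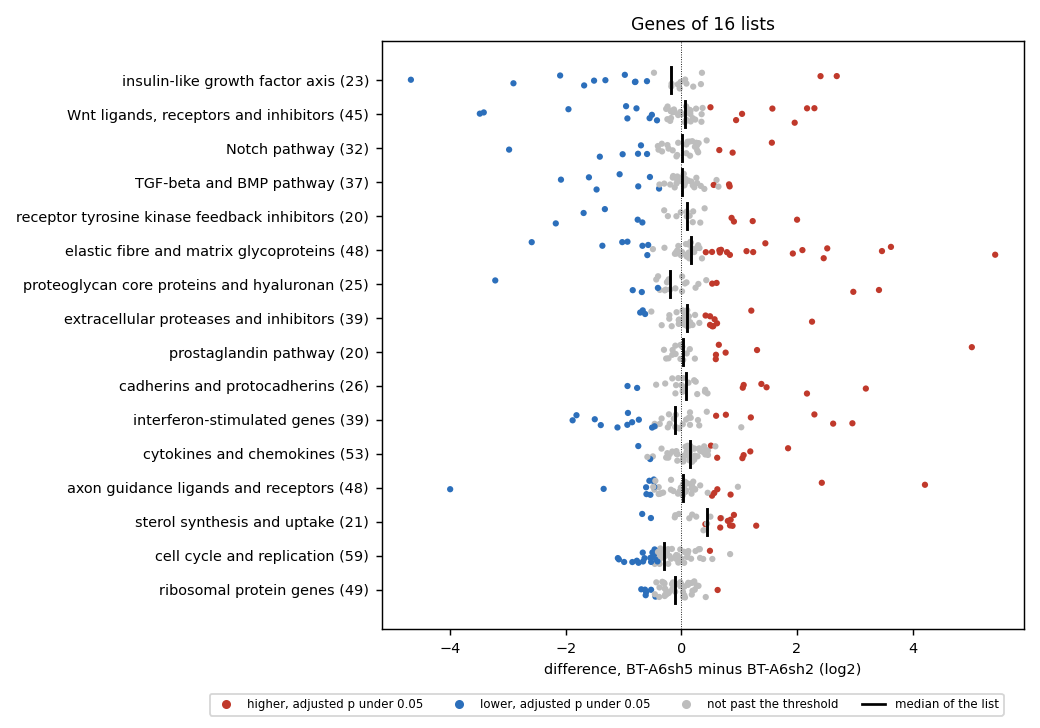
Difference of each measured gene (1 point) of 16 gene groups, BT-A6sh5 minus BT-A6sh2 on the log2 scale, colored by whether it was higher, lower or not past the adjusted p of 0.05 in limma, with a bar at the group's median and the number of genes measured in parentheses. The medians of the sterol genes (0.444) and of the cell cycle genes (-0.307) lie farthest from 0, while the other groups spread to both sides of it.

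In the insulin-like growth factor (IGF) axis about as many members passed the test as did not. IGF binding proteins hold IGFs in the extracellular space, pappalysins cleave them and release the ligand, and insulin receptor substrates carry the signal inside the cell. Of 23 genes measured, 2 were higher, 10 were lower and 11 did not pass, 52.2% against 17.2% of all genes, with a median difference of -0.174. IGFBP5 had 6.87, 7.02, 7.01 and 6.80 in BT-A6sh5 against 11.69, 11.57, 11.67 and 11.50 in BT-A6sh2, and a BT-EV mean of 11.54. BT-A6sh5 was thus at 3.90% of BT-A6sh2 (difference -4.68, standard error 0.107, adjusted p = 6.23e-07, limma), and BT-A6sh2 was not lower than BT-EV. IGFBP6, which prefers IGF-II, had 7.38, 7.10, 7.27 and 6.74 in BT-A6sh5 against 10.12, 10.12, 9.94 and 9.93 in BT-A6sh2 (BT-EV mean 9.25, difference -2.91, adjusted p = 1.52e-05). IGFBP7, a secreted relative with low affinity for IGFs, had 7.79, 7.58, 7.65 and 7.90 in BT-A6sh5 against 9.87, 9.69, 9.93 and 9.83 in BT-A6sh2 (BT-EV mean 10.66, difference -2.10). IGFBP4 went the other way. It had 12.07, 12.07, 12.16 and 11.97 in BT-A6sh5 against 9.68, 9.12, 9.45 and 9.27 in BT-A6sh2 (BT-EV mean 9.35, difference 2.69, adjusted p = 1.35e-05). PAPPA2, a pappalysin that cleaves IGFBP3 and IGFBP5, had 8.4, 8.36, 7.91 and 7.75 in BT-A6sh5 against 6.16, 5.44, 5.6 and 5.59 in BT-A6sh2 (BT-EV mean 5.35, difference 2.41). IRS2, an adaptor of the insulin and IGF-I receptors, had a difference of -1.68. The 4 arrays of each line did not overlap for any of these 6 genes, and in the axis as a whole binding proteins had both the lowest and the highest difference.

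In the Wnt pathway, ligands bind Frizzled receptors, DKK and SFRP proteins are secreted inhibitors, and R-spondins amplify the signal through LGR receptors. Of 45 genes measured, 7 were higher, 9 were lower and 29 did not pass, 35.6% against 17.2% of all genes. Their median difference was 0.0609. DKK1 had 7.69, 7.79, 7.51 and 7.72 in BT-A6sh5 against 10.82, 11.42, 11.04 and 11.37 in BT-A6sh2, with a BT-EV mean of 9.61. The lines stood on opposite sides of BT-EV, and the difference was -3.49 (standard error 0.155, adjusted p = 5.27e-06, limma). The receptor FZD3 had 3.63, 3.49, 3.63 and 3.60 in BT-A6sh5 against 6.81, 7.18, 6.79 and 7.25 in BT-A6sh2 (BT-EV mean 7.22, difference -3.42). Its level in BT-A6sh5 was below the array medians, and the BT-A6sh2 arrays bracketed the BT-EV level. The Wnt5a receptor ROR1 had a difference of -1.95 and the membrane inhibitor APCDD1 had a difference of -0.96. The R-spondin RSPO3 had 8.69, 8.36, 8.64 and 8.51 in BT-A6sh5 against 6.04, 6.16, 6.34 and 6.45 in BT-A6sh2 (BT-EV mean 6.63, difference 2.30). RSPO2 was higher by 2.17 and LGR4, an R-spondin receptor, by 1.58. The inhibitor SFRP2 was higher too, at 9.19, 9.22, 9.16 and 9.0 in BT-A6sh5 against 7.65, 7.12, 7.23 and 6.72 in BT-A6sh2 (BT-EV mean 8.58, difference 1.96). The other R-spondins, RSPO1 and RSPO4, had differences of 0.16 and 0.37 and did not pass (adjusted p = 0.682 and 0.0823, limma). Secreted inhibitors lay on both sides.

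**Figure D3:**
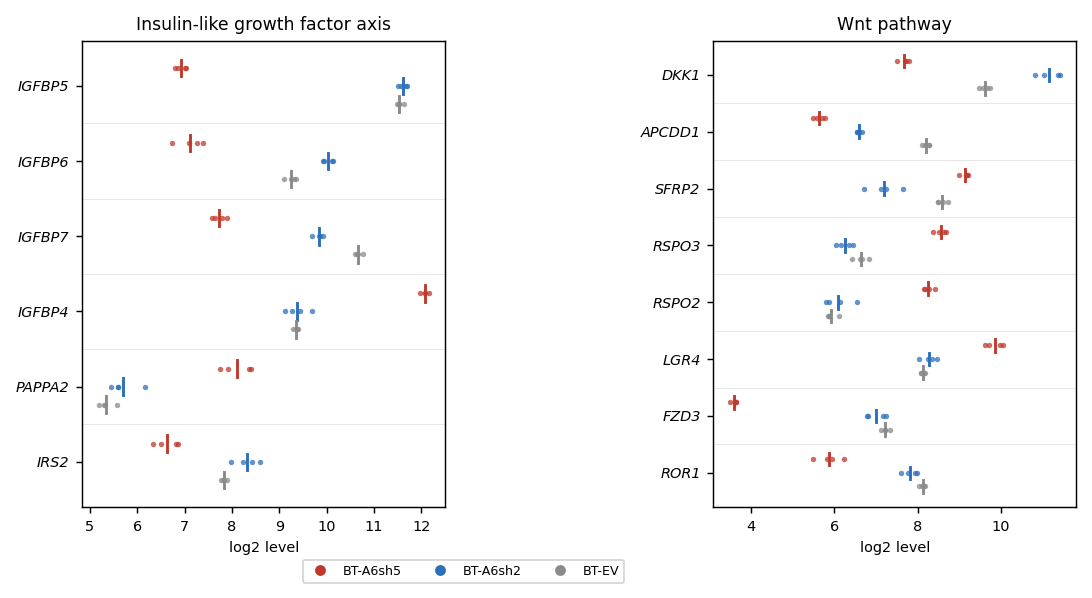
Log2 level (horizontal axis) of 6 genes of the insulin-like growth factor axis (left) and 8 of the Wnt pathway (right), with 1 point per array (4 per line) and a bar at each line's mean, BT-A6sh5 above BT-A6sh2 above BT-EV. The BT-A6sh5 arrays lie below the BT-A6sh2 arrays for IGFBP5, IGFBP6, IGFBP7, IRS2, DKK1, APCDD1, FZD3 and ROR1, and above them for IGFBP4, PAPPA2, SFRP2, RSPO3, RSPO2 and LGR4.

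Notch signaling passes between touching cells from Delta and Jagged ligands to Notch receptors. Of 32 genes measured, 3 were higher and 6 were lower, 28.1% against 17.2% of all genes, with a median difference of 0.0155. The ligand JAG1 had 8.98, 8.89, 8.74 and 8.81 in BT-A6sh5 against 7.37, 6.97, 7.39 and 7.44 in BT-A6sh2 (BT-EV mean 6.0, difference 1.57, adjusted p = 0.000254). DNER, a neuronal membrane protein with Delta-like repeats, had 4.2, 4.37, 4.82 and 4.75 in BT-A6sh5 against 7.65, 7.45, 7.54 and 7.43 in BT-A6sh2 (BT-EV mean 6.38, difference -2.98). JAG1 was thus above BT-EV in both lines, and DNER was below it in BT-A6sh5 and above it in BT-A6sh2. The receptors differed in both directions, with differences of -1.41 in NOTCH3, -0.75 in NOTCH1 and 0.66 in NOTCH2, and the ligand DLL1 differed by -1.02. In the TGF-beta and BMP pathway, 3 of 37 genes measured were higher and 7 were lower (27.0% against 17.2% of all genes, median 0.018). The lower ones included inhibitors of these signals, namely BAMBI, a pseudoreceptor (-2.08), FST, which encodes the activin antagonist follistatin (-1.47), and SMAD6, an inhibitory SMAD (-1.07), together with the BMP-responsive SMAD9 (-1.60). BAMBI was at 7.43, 7.21, 7.42 and 7.43 in BT-A6sh5, against 9.62, 9.37, 9.40 and 9.43 in BT-A6sh2 (BT-EV mean 9.23). GDF15, a stress-induced ligand of this family, was higher by 0.83. Of 42 fibroblast, platelet-derived and related growth factors and receptors, 4 were higher and 2 were lower (14.3% beside 17.2% of all genes). Among them FGF5 was higher by 1.09 and KITLG (stem cell factor) differed by -0.93.

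Genes of the path from the EGF receptor to Ras, with which the study deals at length, were counted in 3 groups. RASGRF2, a Ca2+-activated exchange factor that loads Ras with GTP, had 9.04, 8.86, 8.90 and 8.74 in BT-A6sh5 against 6.39, 6.26, 6.68 and 6.24 in BT-A6sh2, with a BT-EV mean of 4.65. Both lines were above BT-EV, BT-A6sh5 was above BT-A6sh2 in all 4 arrays, and the difference was 2.49 (standard error 0.134, adjusted p = 1.57e-05, limma). A second transcript cluster of RASGRF2 differed by 1.57 (adjusted p = 0.00209). MRAS, a Ras-like GTPase, had 5.96, 4.95, 5.54 and 5.32 in BT-A6sh5 against 8.03, 7.50, 7.44 and 7.57 in BT-A6sh2 (BT-EV mean 7.83, difference -2.19). Of 27 Ras exchange factors, GTPases and GTPase-activating proteins measured, 2 were higher and 3 were lower (18.5% beside 17.2% of all genes, median 0.0486). In the EGF family, 0 of 12 were higher and 4 were lower by limma (33.3% against 17.2% of all genes, median -0.126). At an unadjusted p under 0.05 or by non-overlapping arrays, 0 were higher. EGFR had 10.15, 10.09, 10.06 and 9.87 in BT-A6sh5 against 10.85, 10.70, 10.74 and 10.78 in BT-A6sh2, a difference of -0.73 (adjusted p = 0.00385), and its ligand HBEGF and the ERBB3 ligand NRG1 differed by -0.77 and -0.67.

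Inhibitors that are induced by receptor tyrosine kinases and feed back on them differed in both directions, 4 higher and 5 lower of 20 measured. The share called was 45.0% against 17.2% of all genes, with a median of 0.0928. LRIG1, which lowers EGF receptor levels, had 9.04, 9.07, 8.79 and 8.67 in BT-A6sh5 against 7.08, 6.63, 6.87 and 6.98 in BT-A6sh2 (BT-EV mean 6.53, difference 2.00). SPRY4 and SOCS3 were higher by 0.91 and 0.87. A second transcript cluster of SOCS3 differed by 0.67 and did not pass (adjusted p = 0.218, limma), with arrays that overlapped. The MAP kinase phosphatases DUSP4, DUSP10 and DUSP1 differed by -2.17, -1.69 and -1.32, and SOCS4 by -0.76. DUSP4 had 5.64, 5.64, 5.08 and 5.59 in BT-A6sh5 against 7.88, 7.35, 7.64 and 7.77 in BT-A6sh2 (BT-EV mean 7.11), so that the lines again lay on either side of BT-EV. DUSP6, the ERK phosphatase, was on the other side at 1.23 (adjusted p = 0.0273), but the BT-A6sh2 arrays were spread from 6.43 to 7.86, and the call was lost without BT-A6sh5 replicate 1, 2 or 3 or BT-A6sh2 replicate 4 (adjusted p between 0.0583 and 0.0823, limma). Of 47 genes of Ca2+ entry, stores and extrusion listed, only 13 were found among the named genes, so most of the list was not seen. Of these 13, 0 were higher by limma and 2 were lower (15.4% called against 17.2% of all genes, median -0.164). Again 0 were higher at an unadjusted p under 0.05 or by non-overlapping arrays. The lower ones were RYR2, a Ca2+ release channel, at 4.6, 4.17, 4.48 and 4.70 in BT-A6sh5 against 6.08, 5.78, 6.03 and 6.12 in BT-A6sh2 (difference -1.52), and ORAI1, the pore of store-operated Ca2+ entry (-0.68).

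Cadherins and protocadherins, the Ca2+-dependent adhesion proteins, gave 6 higher and 2 lower of 26 measured (30.8% against 17.2% of all genes, median 0.0775). This group leaves out the 16 protocadherin beta genes measured, of which 0 were higher and 5 were lower by limma (median -0.713). DSG2, a desmosomal cadherin, had 9.41, 9.12, 9.11 and 8.95 in BT-A6sh5 against 5.88, 6.16, 5.84 and 5.94 in BT-A6sh2, with a BT-EV mean of 8.13 (difference 3.19, adjusted p = 4.03e-06, limma). Here BT-A6sh2 was the line far from BT-EV, and BT-A6sh5 was above it. The protocadherins PCDH18, PCDH10 and PCDH7 were higher by 2.17, 1.47 and 1.38. PCDH10 had 8.92, 8.96, 8.99 and 8.92 in BT-A6sh5 against 7.57, 7.34, 7.46 and 7.52 in BT-A6sh2 and a BT-EV mean of 5.71, a step in each line. PCDH1 and PCDH19 differed by -0.93 and -0.77. Pregnancy-specific glycoproteins (PSG) are secreted placental members of the CEACAM adhesion family. Of 21 genes of this family measured, 0 were higher by limma (1 at an unadjusted p under 0.05 and 0 by non-overlapping arrays) and 3 were lower (median -0.0952). The share called was 14.3%, beside 17.2% of all genes. PSG5 had 5.94, 6.51, 5.76 and 6.28 in BT-A6sh5 against 9.30, 9.54, 9.21 and 9.50 in BT-A6sh2 (BT-EV mean 9.78, difference -3.26). PSG7 had 4.42, 4.16, 2.11 and 3.64 in BT-A6sh5 against 5.49, 7.76, 6.75 and 7.53 in BT-A6sh2 (BT-EV mean 8.09, difference -3.30, adjusted p = 0.0114). PSG6 differed by -1.29 (adjusted p = 0.0377) with arrays that overlapped, a call lost in each leave-one-out fit but the one without BT-A6sh2 replicate 1 (adjusted p between 0.0672 and 0.104), and PSG1 by -0.63 (adjusted p = 0.242). PSG genes share nearly identical sequence, so the assignment of signal to single members is uncertain.

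Matrix genes build and anchor the fibres around cells. Of 48 elastic fibre and matrix glycoprotein genes measured, 17 were higher and 7 were lower, 50.0% against 17.2% of all genes, with a median of 0.16. EDIL3, an integrin-binding protein, had 10.83, 10.77, 10.74 and 10.61 in BT-A6sh5 against 6.99, 6.98, 7.41 and 7.06 in BT-A6sh2 (BT-EV mean 9.07). The basement membrane nidogen NID2 had 9.73, 9.75, 9.61 and 9.56 in BT-A6sh5 against 6.69, 5.75, 6.18 and 6.15 in BT-A6sh2 (BT-EV mean 6.14). Its relative NID1 had 9.18, 9.18, 9.02 and 8.78 in BT-A6sh5 against 6.64, 6.38, 6.67 and 6.62 in BT-A6sh2 (BT-EV mean 6.63, difference 2.46). NID1 is outside the rule for named genes and was chosen after its values were seen. Both nidogens stood high in BT-A6sh5 alone, and MFAP2, a microfibril protein, was higher by 2.52. The lower members were led by FNDC1, a secreted protein with fibronectin type III repeats (-2.59), MFGE8, which bridges phosphatidylserine and integrins (-1.37), and CRISPLD2, a secreted lipopolysaccharide-binding protein (-1.02). FNDC1 had 5.01, 5.28, 5.17 and 5.45 in BT-A6sh5 against 7.90, 7.56, 7.99 and 7.82 in BT-A6sh2 (BT-EV mean 9.03), below BT-EV in both lines.

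Of 16 small leucine-rich proteoglycans measured, 2 were higher and 0 were lower by limma (median 0.148), and 0 were lower at an unadjusted p under 0.05 or by non-overlapping arrays. The higher ones were LUM and its neighbor on chromosome 12, DCN (decorin), which had 4.77, 5.28, 4.89 and 4.75 in BT-A6sh5 against 3.43, 3.63, 3.86 and 3.47 in BT-A6sh2, a difference of 1.32 at a low level. Among 25 proteoglycan core proteins and hyaluronan genes measured, 4 were higher and 4 were lower (32.0% against 17.2% of all genes, median -0.194). The membrane heparan sulfate proteoglycan SDC2 had 4.91, 4.88, 4.82 and 4.84 in BT-A6sh5 against 7.90, 8.11, 8.17 and 8.16 in BT-A6sh2 (BT-EV mean 8.14, difference -3.22), and SDC1 differed by -0.84. The intracellular proteoglycan SRGN (serglycin) lay between 11.92 and 12.04 in the 4 BT-A6sh5 arrays, against 8.77 to 9.17 in the 4 BT-A6sh2 arrays (BT-EV mean 10.63, difference 2.98). LAYN, a hyaluronan receptor, had 9.53, 9.86, 9.53 and 9.43 in BT-A6sh5 against 6.16, 6.07, 6.33 and 6.11 in BT-A6sh2 (BT-EV mean 7.25). For SRGN and LAYN the lines moved away from BT-EV in opposite directions. Of 39 extracellular proteases and inhibitors measured, 9 were higher and 3 were lower (30.8% against 17.2% of all genes, median 0.0972). Among them were the collagenase MMP13 at 2.26, the lysosomal cathepsin CTSL at 1.21 and the serine protease inhibitor TFPI2 at -0.71.

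In the prostaglandin pathway, 6 of 20 genes measured were higher and 0 were lower by limma (30.0% against 17.2% of all genes). The median was 0.0234, and 1 gene was lower at an unadjusted p under 0.05 and 1 by non-overlapping arrays. PTGS2, the inducible enzyme that makes prostaglandin H2, had 8.78, 8.94, 8.81 and 8.68 in BT-A6sh5 against 3.98, 3.57, 4.01 and 3.53 in BT-A6sh2 and a BT-EV mean of 3.51 (difference 5.03, adjusted p = 8.83e-07, limma). PTGR1, which inactivates prostaglandins and leukotrienes, was higher by 1.31. Enzymes of tryptophan and sulfide breakdown gave 4 higher and 0 lower of 14 measured by limma (28.6% against 17.2% of all genes). Their median was 0.147, with 1 lower at an unadjusted p under 0.05 and 0 by non-overlapping arrays. KYNU, which cleaves kynurenine, had 8.86, 8.95, 8.88 and 8.69 in BT-A6sh5 against 5.03, 5.06, 4.79 and 4.93 in BT-A6sh2 (BT-EV mean 4.0), and KMO, which hydroxylates kynurenine, was higher by 1.72. SQOR had 9.57, 9.59, 9.59 and 9.69 in BT-A6sh5 against 5.19, 4.97, 5.24 and 4.93 in BT-A6sh2 (BT-EV mean 5.72). The gap between the lines was far wider than the spread within either in all 3 of PTGS2, KYNU and SQOR.

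Of 53 cytokine and chemokine genes measured, 6 were higher and 2 were lower (15.1% beside 17.2% of all genes, median 0.143). CCL2, which attracts monocytes, had 6.51, 6.72, 7.01 and 6.57 in BT-A6sh5 against 3.98, 4.97, 5.68 and 4.79 in BT-A6sh2, both below the BT-EV mean of 8.11 (difference 1.85, adjusted p = 0.00823). LIF, CSF1 and CXCL5, which act on stem cells, macrophages and neutrophils, were higher by 1.19, 1.08 and 1.06. Of 24 antigen presentation genes listed, only 6 were measured. Of these 6, 0 passed the test of limma in either direction (median 0.171, with 1 higher at an unadjusted p under 0.05 and 1 by non-overlapping arrays).

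Interferon-stimulated genes, which many cells switch on together through STAT and IRF factors, did not differ in 1 direction. Of 39 measured, 6 were higher and 11 were lower, 43.6% against 17.2% of all genes, with a median of -0.105. XAF1, a proapoptotic zinc finger protein, had 9.03, 9.02, 8.96 and 8.82 in BT-A6sh5 against 5.85, 6.21, 6.28 and 5.66 in BT-A6sh2, with a BT-EV mean of 7.90 (difference 2.96). IFITM1, which restricts the entry of enveloped viruses, had 10.46, 10.66, 10.73 and 10.67 in BT-A6sh5 against 8.21, 7.83, 8.17 and 7.80 in BT-A6sh2 (BT-EV mean 8.63, difference 2.63). IFITM2 and IFITM3, its near copies, were higher by 2.30 and 0.60, and because they share sequence their separate values are uncertain. BST2, which tethers budding virus, was higher by 1.2. In the same arrays SAMD9, an antiviral protein, had 5.68, 5.89, 5.77 and 5.58 in BT-A6sh5 against 7.44, 7.60, 7.95 and 7.44 in BT-A6sh2 (BT-EV mean 7.58, difference -1.88). The RNA sensor TLR3, the SAMD9 relative SAMD9L and the GTPase MX2 differed by -1.81, -1.50 and -1.39. The lower genes SAMD9, TLR3 and MX2 had BT-A6sh2 levels close to BT-EV, whereas XAF1, IFITM1, IFITM2 and BST2 had BT-A6sh2 levels below BT-EV.

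Promoters of 4 of these genes are shown because the element that many interferon-stimulated genes share was found both in genes that were higher and in genes that were lower. The element searched was the core of the interferon-stimulated response element, the letters GAAA followed after any 2 bases by GAAA again, on both strands (TTTC, any 2 bases and TTTC on the other), from 250 bases before to 50 bases after each start in RefSeq (GRCh38.p14). Counted by gene, with a match at any of its starts, it was present in 1195 of 27305 genes with a promoter sequence (4.38%). Among interferon-stimulated genes with such a sequence, it was present in 3 of 4 that were higher (75%). The element was also present in 4 of 9 that were lower (44.4%) and in 15 of 18 that did not pass (83.3%). Most genes that were lower held no match in this window, and the share was largest among genes that did not pass. A match of letters is a description of the sequence and not a bound site. The promoters printed were picked among those with a match. Capitals mark the matches in 2 genes that were higher, IFITM1 and BST2, and 2 that were lower, TLR3 and SAMD9, each written 5′ to 3′ on the strand of its gene.
IFITM1 promoter, chr11:313790-314089, plus strand: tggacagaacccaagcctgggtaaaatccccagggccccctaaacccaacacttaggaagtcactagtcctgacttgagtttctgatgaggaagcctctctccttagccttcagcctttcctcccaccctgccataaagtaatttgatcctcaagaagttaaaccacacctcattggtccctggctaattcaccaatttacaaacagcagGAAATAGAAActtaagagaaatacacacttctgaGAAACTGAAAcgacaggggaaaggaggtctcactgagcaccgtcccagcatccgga
BST2 promoter, chr19:17405581-17405880, minus strand: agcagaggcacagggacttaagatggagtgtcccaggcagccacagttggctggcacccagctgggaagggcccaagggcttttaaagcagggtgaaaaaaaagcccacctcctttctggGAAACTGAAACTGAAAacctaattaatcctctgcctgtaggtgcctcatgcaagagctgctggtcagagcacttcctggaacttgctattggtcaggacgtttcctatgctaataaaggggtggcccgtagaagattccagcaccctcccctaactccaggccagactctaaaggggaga
TLR3 promoter, chr4:186068906-186069205, plus strand: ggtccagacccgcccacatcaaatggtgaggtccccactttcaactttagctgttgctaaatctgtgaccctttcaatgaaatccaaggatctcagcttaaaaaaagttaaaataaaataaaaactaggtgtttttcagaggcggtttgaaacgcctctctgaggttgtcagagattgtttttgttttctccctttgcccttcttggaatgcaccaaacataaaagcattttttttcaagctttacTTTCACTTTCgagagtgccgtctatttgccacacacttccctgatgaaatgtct
SAMD9 promoter, chr7:93117930-93118229, minus strand: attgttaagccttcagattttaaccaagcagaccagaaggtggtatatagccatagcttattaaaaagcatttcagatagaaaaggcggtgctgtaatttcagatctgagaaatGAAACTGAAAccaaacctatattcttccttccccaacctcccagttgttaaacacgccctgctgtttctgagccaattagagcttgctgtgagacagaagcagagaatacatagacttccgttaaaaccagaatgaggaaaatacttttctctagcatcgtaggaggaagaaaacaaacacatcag
IFITM1 held 2 matches, BST2 held 2 that overlap, and TLR3 and SAMD9 held 1 each.

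Among axon guidance ligands and receptors, which steer cells as well as growth cones, 6 of 48 measured were higher and 9 were lower. That made 31.2% against 17.2% of all genes, with a median of 0.026. EPHA3 had 8.36, 8.12, 7.75 and 7.81 in BT-A6sh5 against 3.38, 4.09, 3.82 and 3.89 in BT-A6sh2 (BT-EV mean 3.71, difference 4.22), and its relative EPHA4 differed by -1.34. NRP2, a coreceptor of semaphorins and VEGF-C, was higher by 2.43. Of 34 regulators of the mesenchymal transition and epithelial genes measured, 3 were higher and 6 were lower, 26.5% against 17.2% of all genes. Their median was 0.161. The transcription factors SNAI2, TWIST2 and PRRX1, which promote the mesenchymal state, differed by -1.22, -1.98 and -0.97, and TCF4, which does so as well, was higher by 0.86. SNAI2 averaged 10.96 ± 0.0515 in BT-A6sh5 and 12.18 ± 0.045 in BT-A6sh2 (SD, n = 4 each, BT-EV mean 12.19), a narrow spread at a high level in each line. The tight junction protein OCLN was higher by 1.43. CD24, a surface sialoglycoprotein, had 4.01, 4.10, 4.11 and 4.15 in BT-A6sh5 against 5.71, 6.12, 6.01 and 6.13 in BT-A6sh2 (BT-EV mean 7.80, difference -1.91), lower than BT-EV in both lines. TMT1A, a thiol methyltransferase, was graded in the same way, with a difference of -1.26 and a BT-EV mean of 7.27. Of 10 genes taken from the study's array results, 9 were measured here under their current symbols, with 4 higher, 4 lower and 1 not past the test (median -0.632). The study names more genes there, and CDH2 and FABP4 are not among these 9. Since the study picked all of the 9 but EGFR on these arrays, their count is not independent evidence.

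Patterning factors set the identity of tissues in the embryo. Of 27 HOX genes measured, 2 were higher and 3 were lower, 18.5% beside 17.2% of all genes (median -0.0074), HOXC10 at 2.04 and HOXB9 and HOXD9 at -1.69 and -1.25. HOXC10 had 7.24, 7.45, 7.50 and 7.43 in BT-A6sh5 against 5.69, 5.51, 5.23 and 5.04 in BT-A6sh2 (BT-EV mean 5.33). Of 137 measured SOX, TBX, PAX, EYA and related factors, 15 were higher and 15 were lower, 21.9% (median 0.0715). EYA1 had 9.42, 9.16, 9.61 and 9.01 in BT-A6sh5 against 5.22, 4.83, 4.18 and 4.58 in BT-A6sh2 (BT-EV mean 4.77), and EYA4 was higher by 3.18. The cardiac factor TBX20 and the LIM homeobox factor LHX2 differed by -1.91 and -1.69. A second transcript cluster of LHX2 differed by -0.45 and did not pass (adjusted p = 0.0736, limma). BT-A6sh2 stood at the BT-EV level for EYA1 and HOXC10 alike.

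Genes of sterol synthesis and uptake had the highest median of the groups plotted, 0.444, with 9 higher and 2 lower of 21 measured, 52.4% against 17.2% of all genes. SQLE, the squalene epoxidase that commits squalene to sterols, had 10.41, 10.35, 10.22 and 10.20 in BT-A6sh5 against 9.01, 9.01, 8.99 and 8.98 in BT-A6sh2 (BT-EV mean 9.09, difference 1.30, adjusted p = 0.000132). TM7SF2 and MSMO1, later enzymes of the pathway, were higher by 0.91 and 0.89. MSMO1 had 11.08, 10.93, 10.94 and 10.88 in BT-A6sh5 against 9.74, 10.21, 10.08 and 10.26 in BT-A6sh2, and the BT-EV mean of 10.50 lay between the lines. Among 25 genes linked to lysosomes and to the transcription factor MITF, 3 were higher and 3 were lower, 24.0% against 17.2% of all genes. Their median was 0.0526, with MITF itself at -1.54 and the lysosomal cation channel MCOLN3 at -1.26. Actin-linked contractile genes gave 6 higher and 4 lower of 28 measured (35.7% against 17.2% of all genes, median 0.103). Among them were TPM1 (tropomyosin) at 1.63 and ENAH, an actin elongation factor, at 1.37 beside PALMD. G protein-coupled receptors and RGS regulators gave 9 higher and 7 lower of 57 (28.1% against 17.2% of all genes, median 0.00607). The thrombin receptor F2R had 6.13, 6.04, 5.77 and 6.29 in BT-A6sh5 against 8.38, 8.38, 8.62 and 8.36 in BT-A6sh2 (BT-EV mean 7.32, difference -2.38), on either side of BT-EV. QRFPR, a neuropeptide receptor, and RXFP2, a relaxin-family receptor, differed by -2.74 and -1.93, while RGS4, which shortens G protein signals, and LPAR4, a lysophosphatidic acid receptor, were higher by 1.54 and 1.31.

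Cell cycle and replication genes had the median farthest below 0 among the plotted groups, -0.307. Of 59 measured, 1 was higher, 17 were lower and 41 did not pass, 30.5% against 17.2% of all genes. The arrays of the lines did not overlap for 34 of the 59 in the lower direction and 7 in the higher one. Over all named genes they did not overlap for 18.6% in the lower direction and 12.6% in the higher one. CDC25A, a phosphatase that activates CDK2, had 7.65, 7.67, 7.65 and 7.39 in BT-A6sh5 against 8.83, 8.54, 8.63 and 8.75 in BT-A6sh2 (BT-EV mean 8.07, difference -1.10). CCND1 (cyclin D1) had 9.13, 9.05, 9.08 and 9.09 in BT-A6sh5 against 10.24, 10.17, 10.22 and 10.05 in BT-A6sh2 (BT-EV mean 9.92, difference -1.08), and its partner CDK4 differed by -0.99. UHRF1, which maintains DNA methylation at replication, differed by -0.85. For these 4 genes BT-A6sh2 lay above BT-EV and BT-A6sh5 below it. The 1 higher gene was CDK6, the other kinase that binds cyclin D1, at 9.76, 9.85, 9.77 and 9.87 in BT-A6sh5 against 9.46, 9.05, 9.42 and 9.34 in BT-A6sh2 (BT-EV mean 9.13, difference 0.49, adjusted p = 0.0352). Its call was lost without any 1 BT-A6sh5 array, without BT-A6sh2 replicate 4 and after median centring (adjusted p between 0.0697 and 0.0964, limma). Of 18 p53-linked stress genes and cell cycle inhibitors, 3 were higher and 4 were lower (38.9% against 17.2% of all genes, median 0.0898). They were led by PMAIP1, the proapoptotic NOXA, at 7.41, 7.54, 7.09 and 7.12 in BT-A6sh5 against 4.11, 4.08, 3.96 and 4.66 in BT-A6sh2 (BT-EV mean 4.27, difference 3.09). Unfolded protein and oxidative stress genes gave 6 higher and 4 lower of 18 measured (55.6% against 17.2% of all genes, median 0.15). Ribosomal protein genes gave 1 higher and 6 lower of 49 (median -0.107), and reference genes 0 higher (0 at an unadjusted p under 0.05 by limma) and 1 lower of 7 (median -0.0774), both 14.3% beside 17.2% of all genes.

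Among microRNAs, which pair with target mRNAs mainly through the seed at bases 2 to 8, the array measures the precursor genes. Of 1063 precursor genes measured, 29 were higher and 27 were lower, 5.27% against 17.2% of all named genes. With the further demand of a 2-fold difference, 12 were higher and 9 were lower. Members of 2 polycistronic clusters were among the lower ones, the MIR23A, MIR27A and MIR24-2 cluster on chromosome 19 and the MIR221 and MIR222 pair on chromosome X. The clusters were chosen with earlier results of these data known, and MIR221 is outside the rule for named genes. No higher precursor gene is named here, so the genes shown give 1 direction only. The mature sequences are shown because the chromosome 19 cluster has a copy on chromosome 9, MIR23B, MIR27B and MIR24-1, with the same seeds, which did not pass the test. They are from RefSeq (GRCh38.p14), 5′ to 3′, with the seed in capitals.
hsa-miR-23a-3p (MIR23A), chr19:13836595-13836615, minus strand: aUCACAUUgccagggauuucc
hsa-miR-27a-3p (MIR27A), chr19:13836447-13836467, minus strand: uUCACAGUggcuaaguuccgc
hsa-miR-24-3p (MIR24-2), chr19:13836289-13836310, minus strand: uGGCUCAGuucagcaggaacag
hsa-miR-23b-3p (MIR23B), chr9:95085265-95085287, plus strand: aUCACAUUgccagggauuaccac
hsa-miR-27b-3p (MIR27B), chr9:95085505-95085525, plus strand: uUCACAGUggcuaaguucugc
hsa-miR-221-3p (MIR221), chrX:45746180-45746202, minus strand: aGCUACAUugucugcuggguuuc
hsa-miR-222-3p (MIR222), chrX:45747036-45747056, minus strand: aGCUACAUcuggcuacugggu
MIR24-1 gives the same mature sequence as MIR24-2. Among 2545 mature sequences the seed UCACAUU occurred in 3, UCACAGU in 3, GGCUCAG in 2 and GCUACAU in 2.

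MIR27A had 7.88, 7.81, 7.32 and 7.20 in BT-A6sh5 against 10.13, 9.48, 9.99 and 9.73 in BT-A6sh2, with a BT-EV mean of 9.58 (difference -2.28, adjusted p = 0.000335, limma). MIR23A had 6.32, 6.48, 6.13 and 5.74 in BT-A6sh5 against 8.13, 7.49, 8.20 and 7.80 in BT-A6sh2 (BT-EV mean 7.49, difference -1.74, adjusted p = 0.00155). MIR24-2 had 7.67, 7.83, 7.81 and 7.34 in BT-A6sh5 against 9.17, 9.37, 9.71 and 9.33 in BT-A6sh2 (BT-EV mean 8.71, difference -1.74, adjusted p = 0.000387). All 3 members lay lower in BT-A6sh5 without overlap, and BT-A6sh2 was at or above BT-EV. The chromosome 9 copies MIR23B, MIR27B and MIR24-1 differed by 0.08, 0.04 and -0.34 (adjusted p = 0.741, 0.947 and 0.364), and their arrays overlapped. A p that misses the threshold does not show that they were equal, and the standard errors were 0.132, 0.318 and 0.224. MIR222 had 6.48, 6.87, 7.13 and 6.56 in BT-A6sh5 against 7.79, 7.83, 8.06 and 7.90 in BT-A6sh2 (BT-EV mean 7.08, difference -1.14, adjusted p = 0.00342). Its neighbor MIR221 differed by -0.85 (adjusted p = 0.0482), a call lost in each leave-one-out fit except that without BT-A6sh2 replicate 1 (adjusted p between 0.0655 and 0.128).

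**Figure D4:**
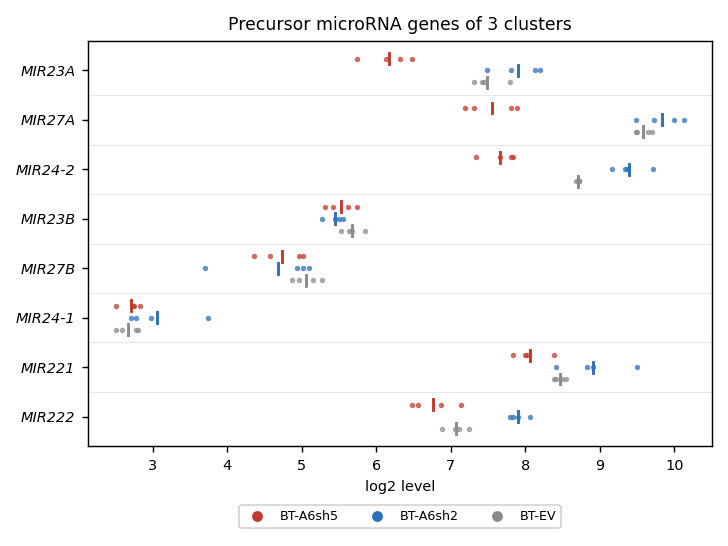
Log2 level (horizontal axis) of 8 microRNA precursor genes, with 1 point per array (4 per line) and a bar at each line's mean, BT-A6sh5 above BT-A6sh2 above BT-EV. BT-A6sh5 lies below BT-A6sh2 for MIR23A, MIR27A and MIR24-2, while the arrays of MIR23B, MIR27B and MIR24-1 overlap.

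The differences were not spread evenly over the chromosomes. Among 9425 protein-coding genes with a mean above the median, 801 were higher (8.5%) and 1424 were lower (15.1%). On chromosome 5, which also carries ANXA6, 18 of 417 genes were higher and 185 were lower (44.4%), 82.3% of differences were below 0, and the median was -0.443. The chromosome's median against BT-EV lay between -0.448 and -0.357 in the 4 BT-A6sh5 arrays, and between -0.0632 and 0.0866 in the BT-A6sh2 arrays. On chromosome 3, 17 of 492 genes were higher and 189 were lower (38.4%), with a median of -0.361, and the array medians against BT-EV lay between -0.403 and -0.315 in BT-A6sh5 and between -0.0562 and 0.0227 in BT-A6sh2. Chromosome 15 went the other way, 87 of 291 genes higher (29.9%) and 14 lower, with a median of 0.257. On chromosome 1, 154 of 936 genes were higher (16.5%) and 31 were lower (median 0.186). On chromosomes 5, 3 and 15, BT-A6sh5 was the line that lay away from BT-EV, by medians of -0.411, -0.363 and 0.201, against 0.0178, -0.0318 and -0.0512 in BT-A6sh2. On chromosome 1 both did, by 0.0873 in BT-A6sh5 and -0.102 in BT-A6sh2. DNA copy number was not analysed here.

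**Figure D5:**
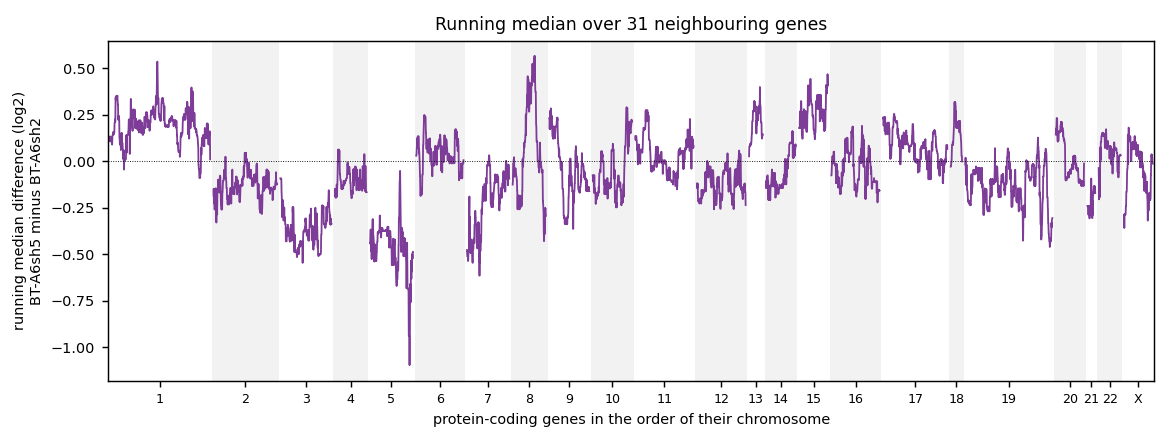
Running median of the difference, BT-A6sh5 minus BT-A6sh2 on the log2 scale (vertical axis), over 31 neighboring protein-coding genes in the order of their position on each chromosome (horizontal axis, shaded in turn). Long stretches of chromosomes 3, 5 and 7 lie below 0, and stretches of chromosomes 8 and 15 lie above it.

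Within chromosomes, runs of neighbors shared a direction. A running median over 31 genes passed 0.3 in size in runs on chromosomes 3, 5, 7, 8 and 19, of which some are given. The longest on chromosome 3 held 145 genes from ZNF589 to ABHD10 (2 higher, 62 lower, median -0.425). The longest on chromosome 5 held 175 genes from PTCD2 to POU4F3 (9 higher, 75 lower, median -0.407). Another on chromosome 5 held 112 genes from CDX1 to RUFY1 (1 higher, 56 lower, median -0.53). On chromosome 7, 54 genes from DPY19L1 to CHCHD2 formed a run (0 higher, 27 lower, median -0.476). So did 40 genes from ZNF583 to ZNF274 on chromosome 19 (0 higher, 13 lower, median -0.425). On chromosome 8 a run held 60 genes from WWP1 to AARD (25 higher, 2 lower, median 0.423). Counts in these runs are descriptions, since the runs were picked by their values. Shorter stretches were also picked after their values were seen. On chromosome 5, the 31 genes from BOD1 to DDX41 held 0 higher and 19 lower (61.3%), with a median of -0.937. The 10 genes before and the 10 after this stretch had medians of -0.683 and -0.53, with 50.0% and 70.0% lower. KIAA1191, a gene of little known function, had 8.81, 8.78, 8.76 and 8.63 in BT-A6sh5 against 10.36, 10.42, 10.37 and 10.41 in BT-A6sh2 (BT-EV mean 10.32, difference -1.65), and NOP16, a factor of ribosome assembly, and ZNF346, a zinc finger protein that binds double-stranded RNA, differed by -1.60 and -1.65. On chromosome 17, all 8 genes from NUFIP2 to SSH2 were higher, with a median of 0.939 and a range of 0.57 to 1.51, whereas the 10 genes on either side had medians of -0.0334 and -0.0497. SSH2, a phosphatase of cofilin, had 7.99, 8.04, 8.03 and 8.04 in BT-A6sh5 against 6.5, 6.53, 6.58 and 6.46 in BT-A6sh2 (BT-EV mean 6.70, difference 1.51), and TAOK1, a kinase of stress signaling, was higher by 1.47. The genes named for these runs were chosen after their values were seen.

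The gene groups were therefore also counted after each array was centred on its median over the genes of each chromosome. ANXA6 then differed by -1.285. This fit had 1 transcript cluster per gene and p-values adjusted over those 14884 only, which by itself gave 3985 calls (26.8%), and 3487 after the centring (23.4%), of which 3017 were shared. These shares, not the 17.2% above, are the background here. After and before centring, the IGF axis gave 2 and 4 higher and 11 and 11 lower (median after centring -0.138). The matrix glycoproteins gave 19 and 18 higher and 7 and 8 lower (0.192), and the interferon-stimulated genes 6 and 8 higher and 11 and 12 lower (-0.141). The sterol genes gave 9 and 11 higher and 1 and 2 lower (0.37), and the cell cycle genes 3 and 5 higher and 25 and 25 lower (-0.26). The median of each of these 5 groups kept its sign, and the part of the chromosome shifts in single genes was not tested.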

How the data were processed

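The 12 arrays, of the Affymetrix Human Gene ST type, measured RNA of 3 BT-549 derivatives. The deposited values are log2 levels that the authors obtained by RMA in Affymetrix Expression Console. The submitters' processing notes also name affy and limma, with versions and genome build not given in the sources used here. This table held 53617 transcript clusters with 0 missing values and 0 columns without a sample. The platform annotation gave 1 symbol for 16098, several for 0 and none for 37519, and 190 control probe sets were among the rows. Taking the transcript cluster of highest mean per symbol left 14884 genes. A RefSeq gene table (GRCh38.p14) served for names, chromosomes and the order of neighbors only.

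BT-A6sh5 was set against BT-A6sh2 in 1 limma 3.58.1 fit over the 8 arrays (R 4.3.3), with 6 degrees of freedom from the residuals and 2.69 from the prior. P-values were adjusted over every transcript cluster by the Benjamini-Hochberg method, with a threshold of 0.05 and, where stated, a 2-fold difference. The moderated tests were two-sided. The number of arrays limits the precision. Named genes were ANXA6, the 9 measured genes taken from the study's array results, and up to 4 per gene group and direction. Added to these were the 15 largest differences in each direction among genes past both thresholds with arrays apart. The members and the 41 gene groups were chosen with earlier results of these data known. Of these groups, the small nucleolar RNA genes had 0 members measured. Alternatives were array weights, a trended and robust prior, a repeated quantile normalization, median centring, a filter on low values, 1 transcript cluster per gene, all 12 arrays in the fit, a test against a 1.2-fold difference, the hybridization controls as a covariate, the replicate number as a block, a count of non-overlapping arrays, and fits without single arrays or without BT-A6sh2 replicates 1 and 3. The scripts were tested on simulated data. Python 3.11.15, pandas 2.3.3 and matplotlib 3.10.9 were used for counts and plots.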

Additional observations from a re-analysis of the deposited data

Results flagged for a closer look

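Of 308 groups of 4 arrays examined (154 genes in each line), 21 held 1 array that stood far from the other 3, 6.82%, where chance gives about 1 in 20. In BT-A6sh5, 3 of these arrays were of replicate 1, 1 of replicate 2, 4 of replicate 3 and 4 of replicate 4. In BT-A6sh2, 4 were of replicate 1, 2 of replicate 2 and 3 of replicate 3. The values are log2 levels, each with the range of the other 3 arrays of its line. BT-A6sh5 replicate 1 stood apart at 7.96 for NOTCH1 (others 7.83 to 7.85), 7.99 for SSH2 (others 8.03 to 8.04) and 9.97 for TCF4 (others 10.03 to 10.03). BT-A6sh5 replicate 2 stood apart at 7.21 for BAMBI (others 7.42 to 7.43). BT-A6sh5 replicate 3 stood apart at 8.68 for DCLK1 (others 8.85 to 8.86), 5.08 for DUSP4 (others 5.59 to 5.64), 8.13 for FST (others 8.32 to 8.34) and 5.66 for HOXB9 (others 6.34 to 6.47). BT-A6sh5 replicate 4 stood apart at 7.39 for CDC25A (others 7.65 to 7.67), 6.52 for MX2 (others 6.33 to 6.34), 8.96 for NRP2 (others 9.19 to 9.21) and 8.61 for TPM1 (others 8.75 to 8.77). BT-A6sh2 replicate 1 stood apart at 6.30 for DLL1 (others 6.5 to 6.52), 9.81 for FST (others 9.73 to 9.73), 3.70 for MIR27B (others 4.94 to 5.09) and 6.30 for SAMD9L (others 7.08 to 7.09). BT-A6sh2 replicate 2 stood apart at 6.97 for JAG1 (others 7.37 to 7.44) and 7.94 for SMIM10 (others 8.02 to 8.03). BT-A6sh2 replicate 3 stood apart at 7.17 for ANXA2 (others 7.63 to 7.67), 8.62 for F2R (others 8.36 to 8.38) and 5.54 for PALMD (others 4.67 to 4.70). Without the array that stood apart, MIR27B differed by -0.29 in place of 0.04, and none of the other genes listed here changed direction without theirs.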

How the results depend on the processing

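The number of transcript clusters past the threshold depended on the setting more than their direction did. In place of 2200 higher and 3341 lower in BT-A6sh5, a fit of all 12 arrays gave 4375 and 6102, a test against a 1.2-fold difference 744 and 1155, the hybridization controls as a covariate 1113 and 2001, and non-overlapping arrays alone 4702 and 6276. Leaving out 1 array gave between 1109 and 2615 higher and between 1816 and 4125 lower. Counts fell by over 1.5 times only without a BT-A6sh5 array. Without its replicate 1, 2, 3 or 4 there were 1109, 1154, 1112 and 1318 higher, and 1903, 2024, 1816 and 2038 lower. At 2-fold, the 627 higher and 786 lower became 251 and 322 with 1 transcript cluster per gene, where fewer rows were tested, and ranged from 507 to 856 and from 684 to 1307 without 1 array, with 1307 lower without BT-A6sh2 replicate 2. Centring each chromosome, an alternative chosen after seeing the data, with 1 transcript cluster per gene gave 1918 lower, and 250 higher and 273 lower at 2-fold. The ANXA6 difference kept its call in every setting, from -1.71 to -1.63 without 1 array and -1.285 after that centring. The cause of these changes was not tested.

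The deviations of same-numbered arrays from the means of their lines correlated at -0.0764, -0.059, 0.0213 and -0.0656. These correlations cannot show whether arrays shared a preparation or a batch. With the replicate number as a block, 820 were higher and 1238 lower, 504 and 672 at 2-fold, and ANXA6 differed by -1.67 (adjusted p = 0.00486, limma).

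Of 154 genes followed (144 under the filter on low values), 2 changed direction, and neither had passed the test. MIR27B, at 0.04, was at -0.035 after median centring, -0.14 with array weights, -0.29 without BT-A6sh2 replicates 1 and 3, and between -0.2873 and 0.1774 without 1 array, below 0 at -0.054, -0.036 and -0.29 without BT-A6sh5 replicate 2, BT-A6sh5 replicate 4 and BT-A6sh2 replicate 1. RSPO1, at 0.16, was at -0.0023 without BT-A6sh2 replicates 1 and 3, and between -0.07164 and 0.285 without 1 array, below 0 without BT-A6sh2 replicate 1. RSPO4, at 0.37, passed the test in 4 settings. Calls were lost for 10 genes in the test against a 1.2-fold difference, for 9 with the block, for 5 with the covariate and for up to 5 without 1 array. They were among ANXA2, CDK6, DUSP6, IFITM3, MIR221, NOTCH1, NOTCH2, ORAI1, PCDH19, PSG6 and TM7SF2. Medians of gene groups close to 0 carried no stable sign: of 40 groups, 11 turned under median centring, 5 under the repeated quantile normalization and 7 after centring by chromosome, each with a median of at most 0.0952 in size. RMA values give no detection call, so a level near the bottom of the scale bounds nothing.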

Other observations

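Protocadherin beta genes, a tandem cluster of neuronal adhesion genes on chromosome 5, did not pass the test for the most part. Of 16 measured, 0 were higher, 5 were lower (31.2%) and 11 did not pass by limma, 15 had a difference below 0, and the median was -0.713. On chromosome 5 as a whole, over protein-coding genes with a mean above the median, 44.4% were lower and the median was -0.443. PCDHB14 had 4.83, 4.83, 4.70 and 5.02 in BT-A6sh5 against 7.62, 7.72, 7.61 and 7.80 in BT-A6sh2 (BT-EV mean 7.80, difference -2.84). PCDHB2 had 6.69, 6.56, 6.51 and 6.47 in BT-A6sh5 against 8.05, 7.83, 8.06 and 7.98 in BT-A6sh2. The arrays of the lines did not overlap for either gene, both were chosen after their values were seen, and members of this cluster share sequence, so their separate values are uncertain.

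Zinc finger genes with a ZNF symbol, many of which lie in tandem on chromosome 19, were counted at every level. On chromosome 19, 0 of 219 were higher and 37 were lower by limma (16.9%, median -0.296). Elsewhere 11 of 217 were higher and 33 were lower (15.2%, median -0.189). Among all named genes at every level, 6.38% were higher and 10.8% were lower, with a median of -0.02. Protein-coding genes with a mean above the median are a different set. Of these, 15.8% were lower on chromosome 19 (median -0.135) and 15.1% over all chromosomes (median -0.0285). The difference between these groups of genes was not tested.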
